A study of Rattus norvegicus with 22 samples.

Results

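All microRNA (miRNA) names of the miR-17, miR-18, miR-19, miR-20, miR-93 and miR-106 families were taken from small RNA libraries of the rat hippocampus, by their number alone and whatever their letter, copy number or arm. The search returned 9 of 468 names, which stood on 10 of 484 rows of the tables and belonged to miR-17, miR-19, miR-20, miR-93 and miR-106. The search found no miR-18 name, so miR-18 was not analysed here. The tissue was the CA1 region of male Long Evans rats, 14 weeks old per the labels, that had been 11 weeks old at the first dose. The treated rats had been injected under the skin with chlorpyrifos (CPF), an organophosphate insecticide that inhibits acetylcholinesterase, at 10 mg/kg a day for 21 days. Control rats were given the vehicle, peanut oil, by the same route and for equally long. There were 11 CPF and 11 control libraries, with no animal identifiers in the labels, so a p-value here rests on the spread of the libraries, which may be technical. All rats were housed singly, and some had gone through fear conditioning, but the labels do not tie that test to libraries.

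These miRNAs come from 3 related gene clusters that mammals carry, named for miR-17-92, miR-106a-363 and miR-106b-25. A miRNA is cut from a hairpin, whose left and right arms (5p and 3p) can each be loaded into Argonaute, and it pairs with messenger RNAs mainly through its seed, bases 2 to 8. The clusters are known for promoting cell division and survival, for high levels in embryonic and tumour tissue, and in brain for roles in neural progenitors. In the rat assembly GRCr8 the 3 genes Mir106b, Mir93 and Mir25 lie inside Mcm7, a gene for a subunit of the DNA replication helicase, on chromosome 12. The 6 genes of the miR-17-92 cluster lie on chromosome 15 and the 5 of the miR-106a-363 cluster on chromosome X.

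RefSeq mature sequences (GRCr8) matched 8 of the 9 names, all but miR-19b. They are shown because 4 of them share a seed and are alike beyond it, which bears on how their reads were told apart. Capitals mark the seed.
miR-93-5p: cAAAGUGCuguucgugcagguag
miR-106b-5p: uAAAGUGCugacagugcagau
miR-17-5p: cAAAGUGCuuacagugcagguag
miR-20a-5p: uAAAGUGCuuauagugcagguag
miR-106b-3p: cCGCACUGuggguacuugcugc
miR-93-3p: aCUGCUGAgcuagcacuucccga
miR-19b-3p: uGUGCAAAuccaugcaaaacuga
miR-19a-5p: uCGUUUUGcauaguugcacu
The first 4 carry the seed AAAGUGC, and no other of the 410 names of the tables that matched RefSeq does. Read base by base from the 5′ end, miR-17-5p and miR-20a-5p differ at 2 of 23 bases, miR-93-5p and miR-17-5p at 4 of 23, and miR-106b-5p and miR-17-5p at 3 of 21. RefSeq gives miR-17-5p the same sequence at 2 genes, Mir17 and Mir106a, and miR-19b-3p the same at Mir19b1 and Mir19b2, so reads of such copies cannot be told apart by sequence. The tables list miR-19b and miR-19b-3p as separate names and do not say how they differ.

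Levels are reads per 1000000 miRNA reads (RPM), the unit of the deposited tables. The libraries were shallow. They held 47844 to 94979 recovered reads in CPF and 53748 to 79349 in control libraries, so that 1 read was worth 10.5 to 20.9 RPM. 3 reads, taken as the floor of detection, came to 31.6 to 62.7 RPM. The library protocol names no molecular identifiers, so reads cannot be taken as separate molecules, and floors and read intervals cover counting error only. All 9 members together took 0.308 ± 0.0313% of RPM in CPF and 0.315 ± 0.0216% in control libraries (SD, n = 11 each). As a check of the tissue, the 6 neuronal miRNAs looked for (among them miR-9a, miR-124, miR-128 and miR-138) were all listed. They summed to 50169 to 78355 RPM in CPF and 53488 to 78575 RPM in control libraries. Most of that was miR-9a-5p, at a mean of 51643 RPM over all libraries, beside 748 RPM for miR-124-3p. Vessel wall and endothelium markers (3 of 4) summed higher, to 221152 to 313435 RPM in CPF and 222209 to 283833 RPM in control libraries. Nearly all of that was miR-143-3p, at a mean of 263757 RPM over all libraries, beside 195 RPM for miR-145-5p and 1588 RPM for miR-126a-3p. Such sums of reads do not give the shares of cell types. Oligodendrocyte markers (2 of 2) summed to 33453 to 81828 RPM in CPF and 47329 to 90059 RPM in control libraries. Most of that was miR-338-3p, at a mean of 53109 RPM, beside 990 RPM for miR-219-2-3p and 344 RPM for miR-219-5p. Of 7 markers of choroid plexus and ependyma looked for, 5 were listed. They summed to 635 to 8005 RPM in CPF and 580 to 1083 RPM in control libraries, highest in CPF replicates 7, 8 and 9. Their part in the levels of the members was not tested, and without those 3 libraries 0 of the 5 tested members passed. Microglia and immune markers (3 of 4 listed) summed to 149.5 to 297 RPM in CPF and 120 to 356 RPM in control libraries. Of 3 red blood cell markers 2 were listed. These summed to at most 79.5 RPM in CPF and 65.9 RPM in control libraries, and none of their 4 names averaged 3 reads.

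miR-93-5p (rno-miR-93-5p in the tables), a cell-cycle regulator known for restraining the inhibitor p21, was by far the most abundant member and the one whose difference between CPF and control was measured most closely. In CPF libraries its level ran from 1986 to 2982 RPM with a median of 2466, and in control libraries from 2122 to 2886 RPM with a median of 2470. The ranges overlapped over nearly their whole width. It averaged 2529 ± 287 RPM in CPF and 2499 ± 208 RPM in control libraries (SD, n = 11 each), a log2 fold change of 0.01 (95% interval -0.13 to 0.15, limma on log2(RPM + 1), adjusted p = 0.974). In linear terms the interval ran from 0.915-fold to 1.11-fold, the narrowest of any member. The value rested on a mean of 189 reads per CPF and 177 per control library. 5 of 11 CPF libraries lay above the control median.

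miR-93-5p was also the bulk of its seed group. The 4 names with the seed AAAGUGC summed to 2696 ± 320.3 RPM in CPF and 2677 ± 230 RPM in control libraries, and miR-93-5p made up 93.9 ± 1.32% of that sum in CPF and 93.4 ± 1.96% in control libraries (SD, n = 11 each). Its share was never below 91.3% in a CPF or 89.5% in a control library. RefSeq has 18 mature names with the family numbers, of which 8 were listed here. miR-20b-5p was not among them, so the share covers the listed names only. In bulk tissue such as this, fewer cells of a type and less RNA per cell cannot be told apart.

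**Figure D1:**
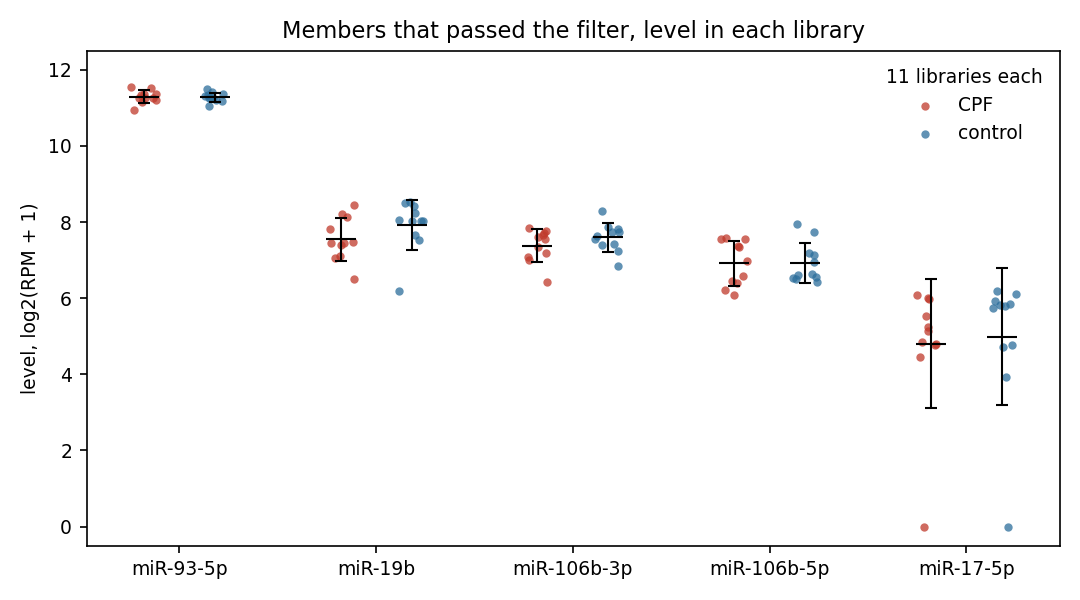
The level of the 5 members that passed the filter on low values, as log2(RPM + 1), with a point for each of 11 CPF and 11 control libraries and black marks for the mean and SD on that scale. miR-93-5p stands above the others in every library, CPF and control points overlap for all 5, and miR-17-5p is at 0 in 1 library of each group.

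miR-106b, the neighbour of miR-93 in Mcm7, gave reads from both arms. The 3p arm was at 84.2 to 230 RPM in CPF (median 186) and 114 to 314 RPM in control libraries (median 197). The 5p arm, which carries the shared seed, was at 66.5 to 190 RPM in CPF (median 125) and 84.5 to 245 RPM in control libraries (median 98.5). Again the groups overlapped for both arms. The log2 fold change was -0.22 for miR-106b-3p (95% interval -0.60 to 0.17, limma adjusted p = 0.840) and -0.01 for miR-106b-5p (95% interval -0.52 to 0.49, limma adjusted p = 0.983). The sign of the miR-106b-5p value changed when any of 9 libraries was left out, as a value so near 0 can.

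Which arm of miR-106b was the higher varied between libraries. The log2 ratio of 5p to 3p averaged -0.46 ± 0.86 in CPF and -0.67 ± 0.78 in control libraries (SD, n = 11 each), and it ran from -1.69 to 1.16 in CPF and from -1.80 to 0.90 in control libraries. Counting error alone gives an SD of about 0.67 in CPF and 0.65 in control libraries. The 5p arm was the higher in CPF replicates 1, 10 and 11 and in control replicates 2 and 7, and the 3p arm in the other 17 libraries. In CPF replicate 1 the 5p arm was at 190 RPM and the 3p arm at 84.2 RPM, while in control replicate 11 the 5p arm was at 89.8 RPM and the 3p arm at 314 RPM. Summed over libraries, 44.4% of the 243 miR-106b reads in CPF were 5p (95% Wilson interval 38.3 to 50.7), and 39.6% of the 255 in control (33.8 to 45.7).

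miR-93 showed the opposite balance, almost all of it 5p. The 5p arm gave 2075 reads in CPF and 1947 in control libraries, and miR-93-3p gave 8 reads in CPF and 6 in control libraries. The share of 5p was 99.6% in CPF (95% Wilson interval 99.2 to 99.8) and 99.7% in control (99.3 to 99.9). In miR-25, the third gene of the cluster, the 3p arm held 1503 reads in CPF and 1467 in control libraries, and the 5p arm 0 reads in CPF, where the floor of 3 reads in the group comes to 3.68 RPM, and 2 in control libraries. Of the 3 hairpins of 1 host gene, miR-93 was thus read almost wholly as 5p and miR-25 as 3p. miR-106b was read from both arms, with more 3p reads when summed over libraries.

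The 3 hairpins also differed in level. Within each library miR-93-5p was 1.37-fold miR-25-3p in CPF and 1.33-fold in control (geometric means, n = 11 each), and above it in 22 of 22 libraries. miR-25-3p, which carries another seed, was at 1843 ± 141 RPM in CPF and 1893 ± 291 RPM in control libraries (log2 fold change -0.03, 95% interval -0.19 to 0.14, limma adjusted p = 0.972). miR-93-5p was 21.0-fold miR-106b-5p in CPF and 20.6-fold in control libraries, and 15.2-fold miR-106b-3p in CPF and 12.9-fold in control libraries. The mature RNAs are of nearly equal length (21 to 23 bases), but adaptor ligation favours some ends over others, so ratios between names are ratios of reads.

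Among the genes of the miR-17-92 and miR-106a-363 clusters, the only member with a clear signal was miR-19b, whose family is known for promoting cell survival. It was at 90.1 to 346 RPM in CPF (median 174) and at 72.2 to 366 RPM in control libraries (median 261). CPF libraries stood lower at the median, and 3 of 11 lay above the control median, but the groups overlapped. The low end of control was replicate 7 alone, and the next lowest control library, at 183 RPM, lay above 7 of the 11 CPF libraries. It averaged 199 ± 77.9 RPM in CPF and 261 ± 86.1 RPM in control libraries (SD, n = 11 each). Its log2 fold change of -0.38 was the furthest from 0 of the 5 members and did not pass (95% interval -0.88 to 0.12, limma p = 0.133, adjusted p = 0.788), ranking it number 43 of 273 by p. Without control replicate 7, the lowest library of all for miR-19b, it was -0.55 (limma p = 0.011, adjusted p = 0.337). The interval leaves room for a level in CPF from 0.542-fold to 1.09-fold that of control.

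miR-17-5p, the founding member, was near the limit of detection. It was at 0 to 66.5 RPM in CPF (median 34.5) and 0 to 72.2 RPM in control libraries (median 55.0), which is 0 to 6 reads in CPF and 0 to 5 reads in control libraries. It was at 0 in CPF replicate 7 and in control replicate 1. The groups overlapped fully, and the log2 fold change of -0.18 had a 95% interval of -1.60 to 1.24 (limma adjusted p = 0.972). It was 0.30 without CPF replicate 7, the only library whose removal changed its sign, and -0.68 without control replicate 1. The name stands on 2 rows, as many as RefSeq has genes for it, and 8 of the 13 repeated names of the tables match in this way. The first row held 28 reads in CPF and 32 in control libraries, and the second row 3 in CPF and 2 in control libraries. Which row belongs to which gene is not given in the sources used here.

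The other 4 members missed the filter of at least 10 RPM in at least 11 libraries, which 5 members passed, and were not in the main test. Without a filter (limma, edgeR and DESeq2) all 9 members were tested and 0 passed. miR-93-3p had its 14 reads in 4 CPF and 4 control libraries. miR-20a-5p, whose sequence is closest to that of miR-17-5p, gave 1 read in CPF and 4 in control libraries, or 1.23 RPM (95% exact Poisson interval 0.031 to 6.83) and 5.13 RPM (1.40 to 13.1) over the pooled reads of CPF and of control. miR-19b-3p gave 2 reads in CPF and 1 in control libraries, against 165 and 203 for the name miR-19b. miR-19a-5p gave 1 read in CPF libraries and 0 of 779679 in control libraries, which allows up to 3.85 RPM by the floor of 3 reads over the group and 4.73 RPM by the exact Poisson interval. The other arm of that hairpin, miR-19a-3p, was not among the listed names. At this depth no difference between the groups was detected for these 4 members.

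**Figure D2:**
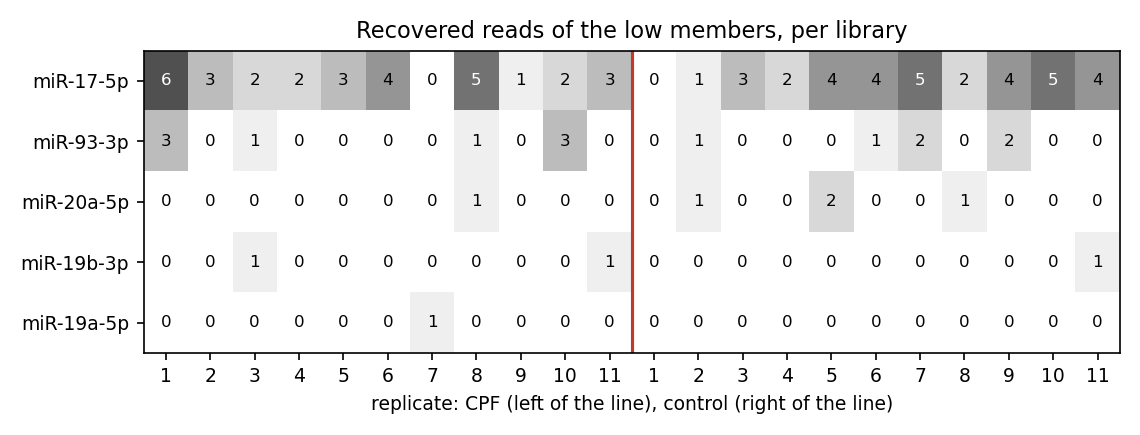
Recovered reads of miR-17-5p and the 4 members that missed the filter in each library, with the 11 CPF libraries left and the 11 control libraries right of the red line, darker for more reads. miR-17-5p has 0 to 6 reads per library, and the other 4 names are at 0 in most libraries of both groups.

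Between CPF and control, 0 of the 5 tested members passed the threshold in either direction (limma, adjusted p under 0.05), and 0 had an unadjusted p under 0.05. Without control replicate 7, 1 did, miR-19b, beside 21 of 273 over all tested miRNAs in that setting. With all 22 libraries the background was 2 of 273 called, or 0.733%, and 18 of 273 at an unadjusted p under 0.05, or 6.59%. With so small a background share, a count of 0 among 5 does not set the members apart. edgeR and DESeq2 on recovered reads called 0 members as well, though edgeR with its filter tested only 3 of them. Of the 5, 4 had a log2 fold change below 0, with a median of -0.18, beside 46.9% below 0 and a median of 0.02 over all 273. The members share libraries and differ in depth, and these counts describe them only.

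The partners of the same clusters outside these families were miR-25, miR-92a and miR-363, with 6 names, of which 2 were tested and 0 passed in either direction (limma). Besides miR-25-3p, this was miR-92a, at 76.1 ± 46.0 RPM in CPF and 84.7 ± 43.8 RPM in control libraries (log2 fold change -0.23, 95% interval -1.15 to 0.68, limma adjusted p = 0.954). Without control replicate 8 it was -0.47, and without CPF replicate 5 it was -0.0133. miR-92a-3p gave 10 reads in each group, and the other 3 names 0 to 5 reads per group. Within libraries miR-19b was above miR-92a in 10 of 11 CPF and 10 of 11 control libraries, 3.14-fold in CPF and 3.47-fold in control libraries by the geometric mean.

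**Figure D3:**
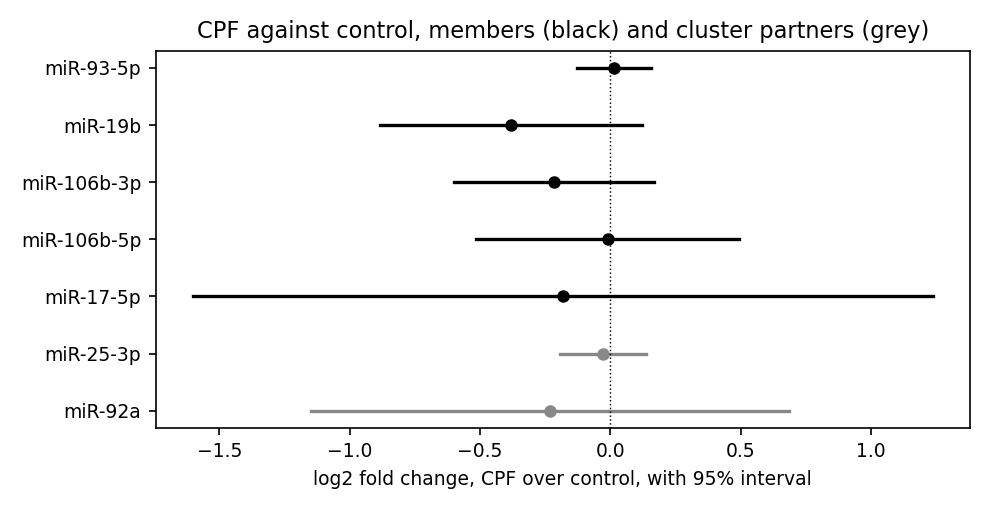
The log2 fold change of CPF over control (points) with its 95% interval (lines) from limma on log2(RPM + 1), for the 5 tested members in black and the 2 tested cluster partners in grey. All 7 intervals include 0, and they widen from miR-93-5p (-0.13 to 0.15) to miR-17-5p (-1.60 to 1.24).

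The order of levels was set by miR-93-5p, then miR-19b, miR-106b-3p and miR-106b-5p, the 4 members averaging at least 3 reads. miR-93-5p was above miR-19b in 22 of 22 libraries, by 3.55 ± 0.67 on the log2 scale (SD, sign-flip permutation test over 22 paired libraries, adjusted p = 6e-05 over 3 neighbour pairs, the smallest it can give). miR-19b was above miR-106b-3p in 15 of 22 libraries, by 0.25 ± 0.72, which did not pass (permutation adjusted p = 0.122). miR-106b-3p was above miR-106b-5p in 17 of 22 libraries, by 0.57 ± 0.81 (permutation adjusted p = 0.00678). The neighbours miR-19b and miR-106b-3p thus did not differ beyond their spread.

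The members also differed in how steady they were. The coefficient of variation (CV) within groups was 9.95% for miR-93-5p, where counting error alone gives 7.49%. That was the tenth lowest of the 55 tested names averaging at least 1000 RPM, whose median CV was 14.0%. It was 26.2% for miR-106b-3p and 54.3% for miR-17-5p, a little below their counting error of 27.6% and 58.8%. miR-106b-5p and miR-19b were more spread, at 40.2% and 35.7% beside counting errors of 33.0% and 24.7%. The ratio of 1.44 between both for miR-19b was the highest of the 5 members, beside a median ratio of 1.21 over the 48 tested names from 100 to under 300 RPM.

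**Figure D4:**
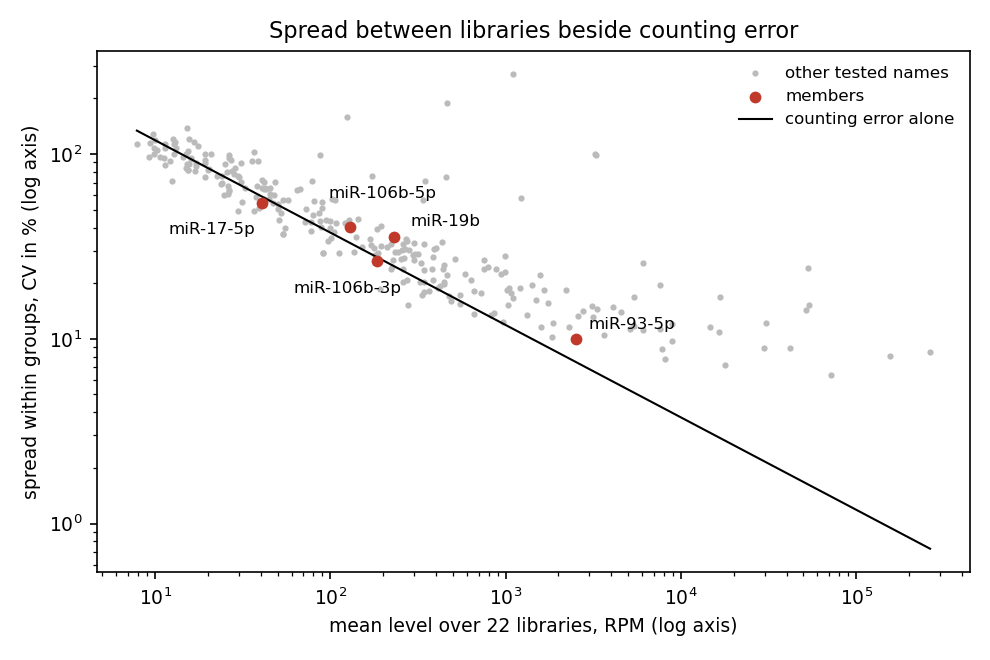
The CV within groups of each of the 273 tested names against its mean level over 22 libraries, both on log axes, with the 5 tested members in red and the CV that counting error alone gives as a black line. miR-17-5p and miR-106b-3p lie just under the line and miR-93-5p, miR-106b-5p and miR-19b above it.

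The code numbers of the libraries have 4 first digits, 3 (n = 6) and 6 (n = 5) in CPF and 1 (n = 5) and 4 (n = 6) in control, which the labels do not explain. Within each group no difference between digits was detected for a tested member. By limma, 0 of 5 had an unadjusted p under 0.05 in CPF and in control, beside 6.96% and 3.66% of the 273 tested. On the log2 scale, digit 6 minus 3 was 0.17 for miR-93-5p (95% interval -0.02 to 0.36) and -1.35 for miR-17-5p (-3.25 to 0.56). Digit 4 minus 1 was 0.11 for miR-93-5p (-0.09 to 0.30) and 1.69 for miR-17-5p (-0.22 to 3.60). miR-93-5p averaged 2691 ± 258 RPM at digit 6 and 2393 ± 251 RPM at digit 3 in CPF, and 2582 ± 200.1 RPM at digit 4 and 2399 ± 187 RPM at digit 1 in control libraries. Pairing digits 3 with 1 and 6 with 4, a choice made here, the CPF effect on miR-17-5p differed by 3.03 between pairs on the log2 scale (95% interval 0.33 to 5.73, limma p = 0.0292, adjusted p = 0.865). It was the only one of the 5 with an unadjusted p under 0.05 in that contrast, beside 4.03% of the 273. That value did not pass, and the 2 libraries at 0 lie in the groups of digits 6 and 1. Within digits 3 and 1 the log2 fold change of miR-93-5p was -0.01, and within digits 6 and 4 it was 0.06.

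For 3 members, miR-93-5p, miR-106b-3p and miR-19b, the names with the smallest SD of the log2 ratio to the member over the 22 libraries were found. The search covered the 259 other tested names that all libraries hold. For miR-93-5p these were miR-3586-3p (SD 0.16), miR-21-5p (0.16) and miR-27b-3p (0.17), beside a median SD of 0.57. For miR-106b-3p they were miR-27b-3p (SD 0.37), miR-151-3p (0.37) and miR-99a-5p (0.38), and for miR-19b they were miR-101a-3p (SD 0.43), miR-29c-3p (0.49) and miR-218a-5p (0.49), beside medians of 0.71 and 0.84. All values of a library share its depth and its total, and names with many reads have less counting error in such a ratio, so these are descriptions. A name that varies little also gives a small SD, as with miR-27b-3p (CV 8.07%) and miR-99a-5p (CV 7.80%). Whether levels rose and fell together was not tested.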

How the data were processed

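The authors deposited 1 table per library, with miRNA names and their RPM (per the file headers), that is reads per 1000000 reads of that table. Without giving roles, the submitters' processing notes list Bowtie, Partek 6.6, cutadapt 1.2, CASAVA 1.8.2 and the build rn4. Per the labels' protocols, a TruSeq small RNA kit and a HiScanSQ sequencer were used. How reads matching several loci were treated, and whether strand was used, is not stated in these sources. RefSeq tables are of GRCr8, so no coordinates are printed.

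The members and lists were chosen with earlier results of these data known. The rule named every member, the partners miR-25, miR-92a and miR-363, and the 3 names with the smallest SD of the log2 ratio to each of 3 members. Rows of 1 name were summed (13 names on 29 rows). Control replicate 2 has 448 rows, and the 36 it lacks hold no member.

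A read was taken as the most frequent low value. Within 0.03 RPM, 91.5 to 97.5% of low values per library were whole reads, and 100% of the member values were, within 0.01 reads. The design allowed for counts. As the files hold RPM, log2(RPM + 1) was modelled with limma 3.58.1 and its trend option, under R 4.3.3, for the 273 names that reached 10 RPM in 11 or more libraries. The test was two-sided, adjusted after Benjamini-Hochberg over these names, and called at 0.05. The pseudocount is below the worth of 1 read, so libraries at 0 can make the fitted fold change of a low name larger or smaller than its mean levels give. Levels were ordered by two-sided sign-flip permutation with 100000 resamples (scipy 1.17.1). Alternatives were pseudocounts, filters, scalings, unsummed rows, edgeR 4.0.16 and DESeq2 1.42.0 on rounded recovered reads, the replicate block, code digits and left-out libraries. The fits were also run on simulated data that gave every name the same spread setting, and no result here rests on that run. The lowest chi-square per degree of freedom between any 2 libraries was 2.42, so none counted as a duplicate.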

Additional observations from a re-analysis of the deposited data

How the results depend on the processing

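No tested member passed in any of the 39 settings run, leaving each library out included. Over all miRNAs limma called 2, and leaving out each library in turn gave 2 to 3. On recovered reads edgeR called 4 with TMM and 4 with RLE, and DESeq2 5, each with 0 members, of 3 tested by edgeR and 9 by DESeq2. The pairs of code digits, with fewer samples, gave 1 (3 against 1) and 1 (6 against 4). Between digits in CPF, edgeR called 1, no member, against 0 with limma. miR-106b-3p and miR-19b stayed below 0 in all settings, at -0.33 to -0.12 and -0.56 to -0.18. Values near 0 changed sign, as did that of miR-17-5p, which was not near 0 in every setting, and the cause was not tested. miR-106b-5p was 0.00562 without miR-143-3p in the total, 0.00197 with unfiltered edgeR, 0.0214 with DESeq2, 0.0321 without CPF replicates 7, 8 and 9, 0.11 for digits 6 against 4, and -0.0763 to 0.0910 with each library left out. miR-17-5p was 0.32 without CPF replicates 7, 8 and 9, 1.35 for digits 3 against 1, -1.68 for digits 6 against 4, and -0.68 to 0.30 with each library left out. miR-93-5p was -0.00672 for digits 3 against 1, and -0.0115 to 0.0471 with each library left out. For digits 6 against 4 miR-25-3p was 0.0205 and miR-92a 0.0826, and miR-25-3p was -0.0618 to 0.00297 and miR-92a -0.47 to -0.0133 with each library left out. The replicate numbers only name libraries (same-numbered pairs correlated at -0.09 to 0.19, 2 of 11 above 0.1), and with the replicate block 2 miRNAs and 0 members passed. The order of levels had 2 of 3 neighbour pairs apart in each of the 5 settings it was run under. Depth limits the rest: miR-17-5p averaged 2.95 reads and 4 members fewer.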
